A study of Homo sapiens with 94 samples.

Results

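The collagen genes were every row of the deposited sense RNA tables whose symbol is COL, a number, A and a number. The rule found 43 genes among the 18850 rows of each table, and COL26A1 had no row under that symbol. Of the 43, 11 encode fibrillar collagens, 6 encode the basement membrane collagen of type IV, and 26 encode other collagens: 10 FACIT collagens, 6 beaded filament collagens, 4 transmembrane collagens, 3 network collagens, 2 multiplexins and the anchoring fibril collagen.

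Collagens are trimers wound from chains that each gene of the family supplies. Fibrillar collagens (types I, II, III, V, XI, XXIV and XXVII) pack into the cross-banded fibrils of bone, skin and cartilage, and FACIT collagens (fibril-associated collagens with interrupted triple helices) sit on the surface of those fibrils. Type IV collagen forms the sheet under epithelia and around vessels, and its 6 genes lie in head-to-head pairs that are transcribed away from a shared promoter region. Loss of DNA methylation is known to release many silenced tissue-specific genes, and several collagen promoters are methylated in tumour lines.

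The study removed or oxidised DNA methylation in 2 human cell lines, both T-Rex Flp-in derivatives that carry a doxycycline-inducible construct: HEK293, an embryonic kidney line with neural features, and U2OS, an osteosarcoma line. Total RNA depleted of ribosomal RNA was sequenced with 3 libraries in a group, and the 16 sense comparisons set each treatment against untreated or partly treated cells of its own experiment. Aza (5-aza-2'-deoxycytidine, an inhibitor of DNA methyltransferases) was given for 48 h at 880 nM to HEK293 and at 55 nM to U2OS, so line and dose cannot be told apart in any contrast of the Aza responses. Doxycycline at 1 µg/mL for 48 h induced TET-CD-GFP, a GFP-tagged catalytic part of a TET enzyme (which oxidises 5-methylcytosine), in HEK293 and U2OS, or its mutant TETMut-CD-GFP in a separate HEK293 line; no U2OS line with the mutant is among the samples. Changes given below as with TET-CD are changes with doxycycline in the TET-CD-GFP lines. HEK293 TET-CD-GFP cells also received 4-thio-2'-deoxythymidine (thio, 25 µM for 48 h), UVA light (10 kJ/m2, every 8 h and 4 times) or both. A further experiment gave Aza or doxycycline to HEK293 cells of a parental line and to 2 clones carrying MeBP_TKO, G16 and G37, each of which is a single clone; the parental line, called MeBP parental here, is TET_WT in its titles and TETMut-CD-GFP in its genotype tags, and replicate 3 of its doxycycline group carries an MeBP_TKO tag that replicate 3 of the G37 doxycycline group lacks. The untreated libraries of U2OS and of each MeBP line served both its Aza and its doxycycline comparison, and the titles give a single untreated group for the Aza, thio and UVA libraries of HEK293.

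The authors' deposited tables give each gene's mean level over the libraries of an experiment, its log2 change with a standard error, and an adjusted p; they hold no value per library, so the spread over samples enters only through that standard error, and read depth is unknown. A gene is called here when the deposited adjusted p is below 0.05. Deposited log2 changes had been shrunk toward 0 by the authors, most for genes of low level, and SE below is the deposited error of the shrunk value unless the text says otherwise. Where nothing states that the libraries of a group came from separate cultures, p-values measure only the spread between those libraries, which may be technical. The TET1 row rose with doxycycline in the authors' deposited tables for all 6 doxycycline comparisons, from a log2 change of 1.97 ± 0.07 in G16 and 1.98 ± 0.03 in the mutant line to 3.52 ± 0.03 in U2OS.

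Mean levels of many collagen genes differed between HEK293 and U2OS. The deposited means pool treated and untreated libraries, so they are not levels of untreated cells. The percentile of a gene's mean level among all genes of its own table was higher in U2OS for 24 of the 43 members and lower for 19. A gap of at least 25 percentile points toward U2OS was seen for 11 members and toward HEK293 for 5, where 5.13% and 4.08% of all 18780 distinct symbols had such gaps. The tables of the lines were normalised separately, so these are descriptions side by side with no test between lines. In bulk RNA, fewer cells of a type and less RNA per cell cannot be told apart.

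**Figure D1:**
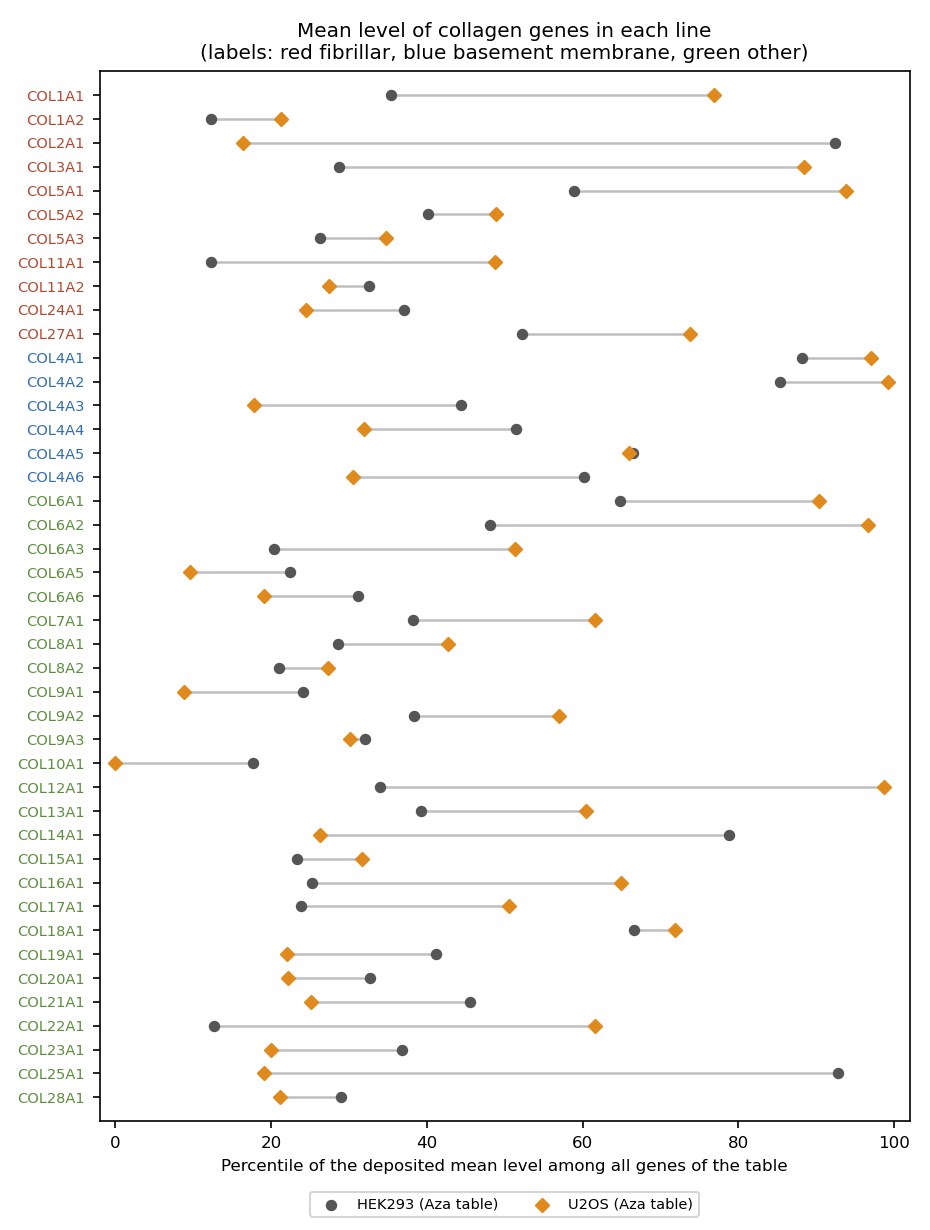
Percentile of the deposited mean level of each of the 43 collagen genes among all genes of the Aza table of HEK293 (grey circles) and of U2OS (orange diamonds), by collagen class. COL12A1, COL3A1, COL22A1 and COL6A2 lie far to the right in U2OS, and COL2A1, COL25A1 and COL14A1 far to the right in HEK293.

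Among fibrillar collagens, 8 of 11 stood higher in U2OS. COL3A1, the collagen of skin and vessel walls, had a mean level of 28.2 normalised reads in the authors' deposited table for HEK293 and 6319 in that for U2OS, percentiles 28.7 and 88.4. COL1A1, a chain of the main bone collagen, stood at 113.2 and 3538, while the other type I chain, COL1A2, was low in both deposited tables, at 0.8 and 27.5. COL11A1, a chain that starts cartilage fibrils, stood at 0.8 and 934.1. The cartilage collagen COL2A1 ran the other way, with 6419 in HEK293 and 10.7 in U2OS in the authors' deposited tables.

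Of the basement membrane genes, COL4A1 and COL4A2, which form the trimer found in nearly all basement membranes, were high in both lines, with percentiles of 88.1 and 85.4 in HEK293 and 97.0 and 99.2 in U2OS in the deposited tables. COL4A3, COL4A4 and COL4A5 form the trimer of the kidney filter. COL4A3 stood at 412.2 in HEK293 and 14.3 in U2OS and COL4A4 at 732.5 and 164.0 in the deposited tables, while COL4A5 stood at nearly the same percentile in both, 66.5 and 65.9. COL4A6, which pairs with COL4A5 in other membranes, stood at 1236 and 129.7.

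The other collagens split within subclasses. The 3 main chains of the type VI beaded filament stood higher in U2OS, with COL6A1 at 1566 and 7270, COL6A2 at 565.2 and 14425 and COL6A3 at 4.4 and 1093 in the authors' deposited tables for HEK293 and U2OS. COL6A5 (6.9 and 2.3), COL6A6 (47.5 and 18.2) and COL28A1 (30.4 and 26.7) of the same subclass had higher percentiles in HEK293 but were low in both lines. FACIT genes diverged: COL12A1 stood at 86.3 and 24316 and COL22A1 at 0.9 and 1835, whereas COL14A1, which like COL12A1 binds type I fibrils, stood at 2959 and 64.0. The neuronal transmembrane collagen COL25A1 had 6595 in HEK293 and 18.2 in U2OS. The 5 members with the highest deposited means were COL25A1, COL2A1, COL4A1, COL4A2 and COL14A1 in HEK293 and COL4A2, COL12A1, COL4A1, COL6A2 and COL5A1 in U2OS; these means are not divided by gene length, so their order is no order of transcript number.

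Among the lists of candidate cell type markers, only the fibroblast markers stood higher in U2OS throughout. All 5 fibroblast markers (PDGFRA, PDGFRB, THY1, FAP and DPT) had higher percentiles in U2OS, with a summed level of 157.6 in HEK293 and 7190 in U2OS in the authors' deposited tables. Most of the U2OS sum came from THY1 (3369) and PDGFRB (3138), and DPT was very low in both lines (0.4 and 2.6). Osteoblast markers summed to 685.4 and 3621 over 7 genes. Of the 7, 4 had a higher percentile in U2OS: RUNX2 (means of 552.7 and 2074), ALPL (47.0 and 917.4), SPP1 (2.8 and 446.5) and PHEX (24.5 and 114.2). BGLAP (55.1 and 62.4), SP7, a factor of osteoblast commitment (2.6 and 5.0), and DMP1, an osteocyte gene (0.7 and 1.5), had a lower percentile there. The 11 embryonic kidney and neural markers summed to 1304 and 2191, with 5 of 11 at a higher percentile in U2OS. The part of these markers in the collagen levels was not tested.

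Aza raised a broad set of collagen genes in HEK293. Of 43 members tested, 12 rose and 1 fell, 30.2% in all, where 14.3% of 16523 genes were called in the authors' deposited table (7.17% higher and 7.14% lower). By class, 3 of 11 fibrillar, 1 of 6 basement membrane and 8 of 26 other collagens rose, and the fall was in the basement membrane class. The median log2 change before shrinkage was 0.13 over the members and 0.01 over all genes tested.

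The rises were spread over fibrillar, type VI and FACIT genes. COL1A1 rose by a log2 change of 0.95 ± 0.19 (adjusted p = 1.5e-06), and the type V chains, which help start type I fibrils, rose by 0.52 ± 0.13 for COL5A2 (adjusted p = 0.00011) and 0.20 ± 0.09 for COL5A1 (adjusted p = 0.032) in the authors' deposited table. COL6A3 had the largest deposited change, 1.90 ± 0.95 (adjusted p = 0.017), at a mean level of only 4.4, and COL6A1 rose by 0.27 ± 0.09 at a mean level of 1566. Of 10 FACIT genes 5 rose, and the deposited table shows COL16A1 up by 1.51 ± 0.45, COL9A2 by 0.55 ± 0.15, COL9A3 by 0.51 ± 0.24, COL12A1 by 0.51 ± 0.22 and COL14A1 by 0.35 ± 0.08. COL17A1, a hemidesmosome collagen, rose by 0.99 ± 0.79 at a mean level of 9.6, and COL4A4 by 0.21 ± 0.08.

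The 3 MeBP lines, each with untreated libraries of its own, repeated much of this set. According to the authors' deposited tables, 10 members rose and 3 fell in the parental line, where 22.7% of genes were called (10.4% higher and 12.3% lower). In G16, 10 rose and 6 fell, where 23.6% of genes were called (11.6% higher), and in G37 11 rose and 6 fell, where 24.7% were called (12.1% higher and 12.6% lower), in those deposited tables. COL1A1, COL5A1, COL5A2, COL6A3, COL9A2, COL9A3, COL14A1 and COL16A1 rose in all 4 HEK293 Aza comparisons, 8 of 43 members, where 4.3% of the 16248 genes tested in all 4 did so; the COL14A1 call in G16 (adjusted p = 0.048) was lost with p-values adjusted over every gene (adjusted p = 0.053) and with centred changes (adjusted p = 0.066). COL4A1 fell in all 4, as did 4.02% of genes. No member was called higher in some HEK293 Aza comparisons and lower in others.

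**Figure D2:**
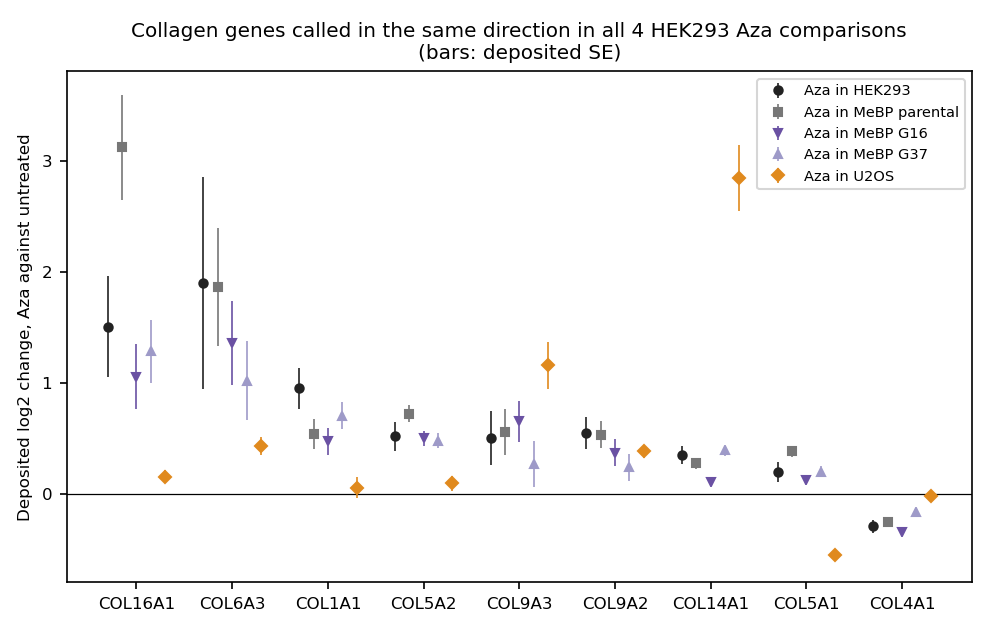
Deposited log2 change with Aza, with its standard error, of the 9 collagen genes called in the same direction in all 4 HEK293 comparisons, with U2OS beside them. COL16A1 reached 3.12 in the MeBP parental line, COL14A1 reached 2.84 in U2OS, and COL5A1 lies above 0 in HEK293 and below 0 in U2OS.

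Within the repeated set the sizes varied between lines. COL16A1, a FACIT collagen, had deposited changes of 1.51 ± 0.45 in HEK293, 3.12 ± 0.48 in the MeBP parental line, 1.05 ± 0.29 in G16 and 1.28 ± 0.29 in G37. COL5A2 was steadier in the deposited tables, at 0.52 ± 0.13, 0.72 ± 0.08, 0.50 ± 0.07 and 0.48 ± 0.07 in the same order. COL1A1 had 0.95 ± 0.19, 0.54 ± 0.14, 0.47 ± 0.12 and 0.71 ± 0.12 in the deposited tables. The FACIT gene COL14A1 ranged from 0.11 ± 0.05 in G16 (adjusted p = 0.048) to 0.39 ± 0.05 in G37 in the deposited tables.

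The rest of the repeated set covered type V, VI and IX chains. COL6A3, which is needed to complete the type VI filament, had deposited changes of 1.90 ± 0.95, 1.86 ± 0.53, 1.36 ± 0.38 and 1.02 ± 0.36 in HEK293, the MeBP parental line, G16 and G37. COL9A3 had 0.51 ± 0.24, 0.56 ± 0.21, 0.65 ± 0.19 and 0.27 ± 0.20 in the same deposited tables, and COL9A2 had 0.55 ± 0.15, 0.53 ± 0.12, 0.37 ± 0.12 and 0.24 ± 0.12. COL5A1 had deposited changes of 0.20 ± 0.09, 0.39 ± 0.05, 0.13 ± 0.05 and 0.20 ± 0.05. All of these values lie above 0, and the errors of COL6A3 and COL9A3 are wide beside the gaps between lines.

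Members outside the repeated set were called in fewer of these lines. COL8A2, a network collagen of the cornea, rose by 1.55 ± 0.86 in the MeBP parental line and 1.55 ± 0.64 in G16, at a mean level of 9.3, and had a called change of 0.07 ± 0.14 in G37 in the authors' deposited tables. COL17A1 rose in G16 by 1.37 ± 0.55, COL6A1 in the parental line by 0.28 ± 0.15 and COL12A1 in G37 by 0.27 ± 0.20 in the deposited tables. Lower calls in the authors' deposited tables were COL4A6 in the parental line (-0.21 ± 0.06), G16 (-0.15 ± 0.06) and G37 (-0.14 ± 0.06), COL4A3 in the parental line (-0.23 ± 0.10), COL2A1 in G16 (-0.18 ± 0.05), and COL23A1 in G16 and G37 (-0.32 ± 0.21 and -0.34 ± 0.18). COL18A1, the source of endostatin, fell by 0.20 and 0.17 in the deposited tables of G16 and G37, and COL27A1 and COL13A1 fell in G37 by 0.26 and 0.24.

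No collagen gene passed the test of a different Aza response between a clone and the parental line, which does not show that the responses were alike. The test divided the difference of the log2 changes before shrinkage by their joint error and was adjusted over all genes: 0 of 43 members passed for G16 minus parental, where 7 of 16384 genes (0.0427%) did, and 0 of 40 for G37 minus parental, where 1 of 15710 (0.00637%) did. At an unadjusted p below 0.05 there were 7 and 4 members. The lowest p belonged to COL5A1 in G16, whose change before shrinkage was 0.14 ± 0.05 in the clone and 0.40 ± 0.05 in the parental line, a difference of -0.26 ± 0.07 (adjusted p = 0.16), and COL16A1 differed by -1.99 ± 0.54 (adjusted p = 0.16) in G16 and -1.78 ± 0.54 (adjusted p = 0.99) in G37.

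Calls among the type IV genes fell on single genes of each head-to-head pair, except with Aza in G16, where COL4A1 and COL4A2 both fell. COL4A1 fell with Aza in all 4 HEK293 lines, by deposited changes of -0.29 ± 0.06, -0.25 ± 0.05, -0.34 ± 0.04 in G16 and -0.16 ± 0.04 in G37, while its partner COL4A2 was called in G16 alone (-0.23 ± 0.05) and had -0.07 ± 0.06, -0.07 ± 0.05 and -0.08 ± 0.05 in the others. In U2OS the deposited table has COL4A2 lower by 0.22 with an SE of 0.03, and COL4A1 had -0.02 ± 0.03. With doxycycline, COL4A2 rose in HEK293 TET-CD by 0.20 ± 0.03 and in the MeBP parental line, whose construct the labels give both ways, by 0.25 ± 0.06 in the deposited tables, and COL4A1 had 0.00 ± 0.02 and 0.03 ± 0.04. The difference between partners was not tested, since both come from the same libraries and the tables give no covariance.

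**Figure D3:**
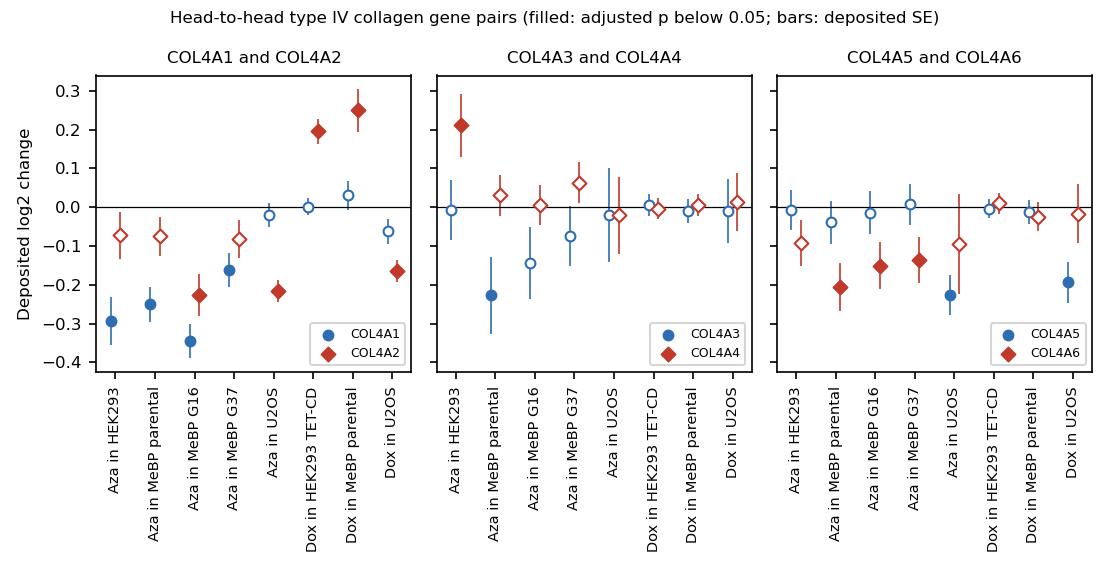
Deposited log2 change and standard error of the type IV collagen genes by head-to-head pair in 5 Aza and 3 doxycycline comparisons; filled markers have an adjusted p below 0.05. COL4A1 is filled and below 0 in the 4 HEK293 Aza comparisons, and COL4A2 is filled and above 0 with doxycycline in HEK293 TET-CD and the MeBP parental line.

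In the remaining type IV pairs no comparison had both partners called. COL4A5 fell in U2OS with Aza (-0.23 ± 0.05) and with TET-CD (-0.19 ± 0.05), while COL4A6 fell with Aza in the 3 MeBP lines and had a deposited change of -0.10 ± 0.13 with Aza in U2OS. COL4A3 and COL4A4 were each called in a single comparison in the deposited tables, COL4A3 lower with Aza in the MeBP parental line and COL4A4 higher with Aza in HEK293.

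The promoter windows of the first pair are printed because the partners share most of that sequence and yet carry different calls. In the RefSeq windows of GRCh38.p14, which run from 250 bases before a start to 50 after it, the starts of COL4A1 and COL4A2 lie 127 bases apart on opposite strands and the windows share 226 bases. The pairs COL4A3 with COL4A4 and COL4A5 with COL4A6 have starts 419 and 380 bases apart and share 82 and 121 bases. CpG sites, the target of DNA methylation, are in capitals, and each window holds 45, more than 96.5% of all 35116 windows. The COL4A1 window is chr13:110307108-110307407 on the minus strand and that of COL4A2 is chr13:110307034-110307333 on the plus strand.
COL4A1: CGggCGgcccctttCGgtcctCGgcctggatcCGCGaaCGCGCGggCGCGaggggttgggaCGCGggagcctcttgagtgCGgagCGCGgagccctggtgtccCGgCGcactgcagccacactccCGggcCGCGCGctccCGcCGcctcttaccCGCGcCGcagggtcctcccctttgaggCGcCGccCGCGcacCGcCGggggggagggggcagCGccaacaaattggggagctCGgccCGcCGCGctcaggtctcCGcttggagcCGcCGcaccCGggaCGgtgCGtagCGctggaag
COL4A2: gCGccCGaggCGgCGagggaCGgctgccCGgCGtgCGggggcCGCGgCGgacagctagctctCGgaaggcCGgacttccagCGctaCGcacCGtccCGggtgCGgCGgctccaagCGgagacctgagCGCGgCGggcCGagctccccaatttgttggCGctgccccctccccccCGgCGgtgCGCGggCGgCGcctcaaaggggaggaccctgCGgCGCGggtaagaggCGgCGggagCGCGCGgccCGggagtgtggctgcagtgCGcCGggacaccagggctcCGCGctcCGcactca

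Windows of 3 members with rises in HEK293 are printed to show how far their CpG content differs. COL5A1 (chr9:134641553-134641852, plus strand) rose with Aza in HEK293 and fell in U2OS and holds 36 CpG sites. COL16A1 (chr1:31703968-31704267, minus strand) holds 22 and COL6A3 (chr2:237414115-237414414, minus strand) 4, although both rose with Aza in all 4 HEK293 comparisons. Over the 43 windows of the 31 members that matched RefSeq by symbol the median was 17 CpG sites, and over all windows it was 14. The TATA box letters TATAAA, searched on both strands, occur in 8 of the 43 windows and in 11.5% of all windows. CpG sites are again in capitals.
COL5A1: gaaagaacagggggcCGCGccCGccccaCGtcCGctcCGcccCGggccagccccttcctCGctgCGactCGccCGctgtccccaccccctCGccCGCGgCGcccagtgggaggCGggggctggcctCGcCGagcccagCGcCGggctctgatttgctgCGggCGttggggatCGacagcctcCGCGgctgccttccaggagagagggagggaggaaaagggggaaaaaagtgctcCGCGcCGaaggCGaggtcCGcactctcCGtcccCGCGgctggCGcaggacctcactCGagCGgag
COL16A1: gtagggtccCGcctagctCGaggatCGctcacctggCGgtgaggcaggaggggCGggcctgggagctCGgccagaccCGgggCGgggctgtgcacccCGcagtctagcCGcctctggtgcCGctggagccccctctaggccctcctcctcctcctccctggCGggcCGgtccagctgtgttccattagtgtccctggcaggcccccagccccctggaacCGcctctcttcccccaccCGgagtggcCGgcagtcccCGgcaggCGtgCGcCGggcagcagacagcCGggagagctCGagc
COL6A3: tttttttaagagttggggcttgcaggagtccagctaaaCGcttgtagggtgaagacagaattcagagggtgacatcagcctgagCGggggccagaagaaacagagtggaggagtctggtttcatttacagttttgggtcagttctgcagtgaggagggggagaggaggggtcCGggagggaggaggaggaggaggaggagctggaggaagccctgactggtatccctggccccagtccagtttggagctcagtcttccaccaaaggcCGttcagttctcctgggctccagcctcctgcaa

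In U2OS, Aza at 55 nM gave collagen calls in both directions. Across the authors' deposited table, 8 of 42 members tested rose and 10 fell, 42.9% in all, where 23.7% of 17478 genes were called (10.8% higher and 12.9% lower). Of 11 fibrillar genes 4 fell and 0 rose, of 6 basement membrane genes 2 fell and 0 rose, and of 26 other collagens 8 rose and 4 fell. Median log2 changes before shrinkage were -0.23 over fibrillar, -0.23 over basement membrane and 0.11 over other collagens, and 0.00 over all genes tested.

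The largest rise in U2OS was that of COL14A1, a gene at percentile 78.8 in HEK293 and 26.3 in U2OS, by means that include treated libraries. Its deposited change was 2.84 ± 0.30 (adjusted p = 4.8e-21) at a mean level of 64.0. The authors' deposited table also shows COL8A2 up by 1.29 ± 0.24, COL9A3 by 1.16 ± 0.21, COL6A3 by 0.43 ± 0.08, COL9A2 by 0.38 ± 0.06, COL15A1 by 0.30 ± 0.18, COL17A1 by 0.21 ± 0.07 and COL16A1 by 0.16 ± 0.05. COL9A2 and COL9A3 encode chains of the FACIT collagen that coats cartilage fibrils.

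The falls in U2OS included the fibrillar genes with the highest means there. COL5A1 fell by 0.55 with an SE of 0.04 (adjusted p = 5.1e-48) and COL3A1 by 0.42 with an SE of 0.04 (adjusted p = 3.2e-27) in the authors' deposited table. COL5A3, another type V chain, fell by 0.57 at a mean level of 249.0. The deposited table also shows COL22A1 (-0.40 ± 0.05), COL6A1 (-0.29 ± 0.04), COL6A2 (-0.28 ± 0.03), COL4A5, COL4A2, COL27A1 (-0.22 ± 0.05) and COL18A1 (-0.20 ± 0.05) lower.

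**Figure D4:**
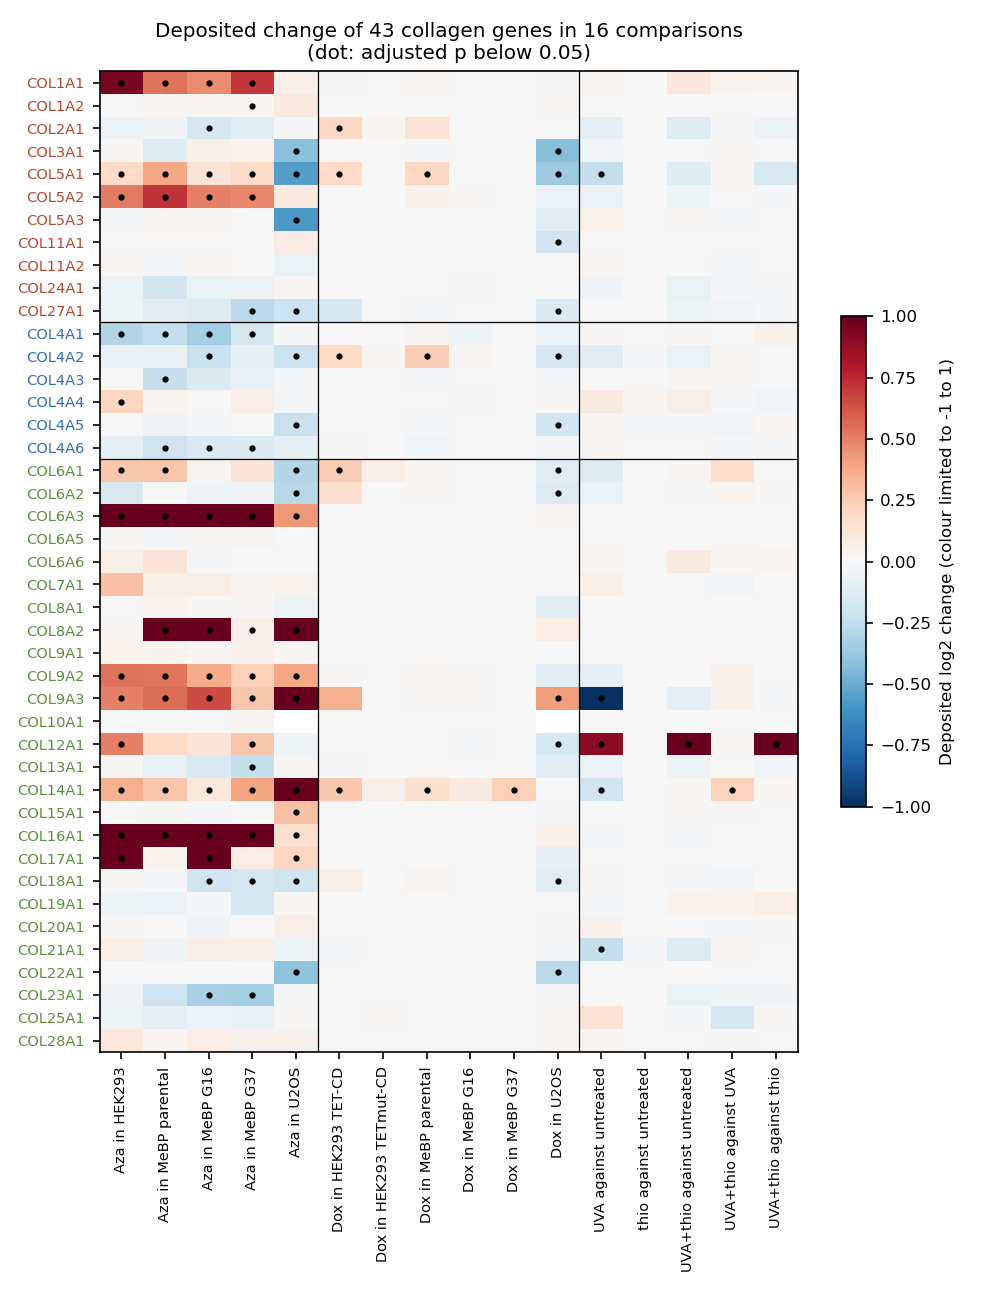
Deposited log2 change of the 43 collagen genes (rows, by class) in the 16 sense comparisons (columns), with colour limited to the range from -1 to 1 and a dot where the adjusted p was below 0.05; white cells have no value. The 4 HEK293 Aza columns are red for COL1A1, COL5A2, COL6A3, COL9A2, COL9A3 and COL16A1, and the U2OS columns are blue for COL3A1, COL5A1, COL4A5 and COL22A1.

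By the test of the difference between lines, 9 of 41 members had an Aza response that differed between U2OS and HEK293, where 12.7% of 15945 genes did. COL4A1 and COL14A1 were higher in U2OS and 7 members were lower. COL5A1 had a change before shrinkage of -0.55 ± 0.04 in U2OS and 0.25 ± 0.09 in HEK293, a difference of -0.80 ± 0.09 (adjusted p = 4.1e-15). COL6A1 had -0.30 ± 0.04 and 0.31 ± 0.09, a difference of -0.61 ± 0.10 (adjusted p = 1.7e-08), so both genes fell in U2OS and rose in HEK293.

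COL12A1 also took opposite signs, but its U2OS change of -0.04 ± 0.03 was not called. The fibrillar genes COL1A1 and COL5A2 differed by -0.91 ± 0.22 and -0.45 ± 0.14, COL16A1 by -1.55 ± 0.42 and COL4A5 by -0.23 ± 0.08, all lower in U2OS. COL14A1 differed by 2.52 ± 0.30 (adjusted p = 4.7e-14) and COL4A1 by 0.29 ± 0.07 (adjusted p = 0.00059) toward U2OS.

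**Figure D5:**
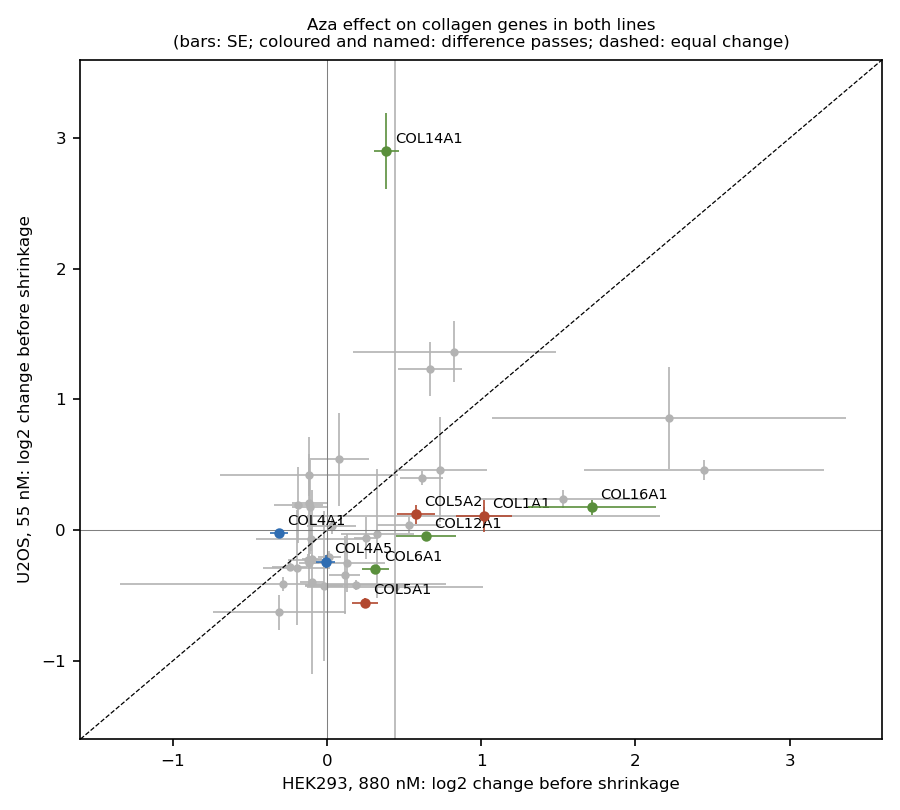
Log2 change before shrinkage with Aza in HEK293 (x axis, 880 nM) and U2OS (y axis, 55 nM) for the 41 collagen genes tested in both lines, with standard errors; the 9 named genes differ between lines. COL14A1 stands at the top near 2.90 in U2OS, and COL5A1 and COL6A1 lie right of 0 and below 0; the error bar of 1 gene runs past the axes.

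In the HEK293 TET-CD line 5 collagen genes rose with doxycycline. Of 37 members with an adjusted p, 5 rose and 0 fell, where 0.883% of 14942 genes were called (0.656% higher and 0.228% lower) in the authors' deposited table; at an unadjusted p below 0.05 the authors' DESeq2 test had 10 higher and 1 lower. COL14A1 rose by 0.27 ± 0.04, COL6A1 by 0.24 ± 0.05, COL2A1 by 0.20 ± 0.03, COL5A1 by 0.20 ± 0.06 and COL4A2 by 0.20 ± 0.03 in that deposited table. In the MeBP parental line COL4A2 (0.25 ± 0.06), COL5A1 (0.21 ± 0.05) and COL14A1 (0.16 ± 0.05) rose, 3 of 39 members, where 1.3% of genes were called (1.04% higher and 0.261% lower) in the deposited table; the tags of that line name the mutant construct.

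The mutant construct and the clones gave few collagen calls. With TETMut-CD-GFP 0 of 43 members were called, where 0.0276% of genes were (0.0166% higher and 0.0111% lower), and 3 were higher at an unadjusted p below 0.05 in the authors' DESeq2 test. In G16 0 of 17 members with an adjusted p were called with doxycycline, where 0.364% of genes were (0.164% higher and 0.2% lower), with 1 higher and 2 lower at an unadjusted p below 0.05 in that DESeq2 test. In G37 COL14A1 rose by 0.24 ± 0.05 in the deposited table, the only one of 43 members, where 0.263% of genes were called (0.228% higher and 0.0351% lower).

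Calls in the TET-CD line and none in the mutant line do not by themselves show a difference. Tested directly, TET-CD minus TETmut-CD passed for 0 of 28 members, where 0.165% of 13349 genes passed, and 8 had an unadjusted p below 0.05. The 5 members called with TET-CD had differences toward TET-CD of 0.25 ± 0.08 for COL5A1, 0.17 ± 0.05 for COL14A1, 0.15 ± 0.04 for COL2A1, 0.14 ± 0.05 for COL4A2 and 0.13 ± 0.07 for COL6A1 before shrinkage, with adjusted p from 0.11 for COL2A1 to 0.99 for COL6A1. The mutant table had been shrunk so strongly that its error was taken as no smaller than that of the TET-CD table. Where the error was raised, the mutant change was rescaled with it, as the z-score of the deposited p times the raised error. The mutant side of these differences therefore rests partly on an error borrowed from the TET-CD table.

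In U2OS, collagen genes of all 3 classes fell with doxycycline, which induces TET-CD there. The falls were 4 of 11 fibrillar, 2 of 6 basement membrane and 5 of 26 other collagens. From the authors' deposited table, 1 of 40 members tested rose and 11 fell, 30.0% in all, where 12.2% of 16038 genes were called (5.8% higher and 6.43% lower). COL3A1 fell by 0.43 with an SE of 0.04 and COL5A1 by 0.36 with an SE of 0.04. The deposited table also has COL22A1 (-0.27 ± 0.05), COL11A1 (-0.19 ± 0.08), COL4A5 (-0.19 ± 0.05), COL12A1 (-0.17 ± 0.03), COL4A2 (-0.16 ± 0.03), COL27A1 (-0.14 ± 0.05), COL6A2 (-0.13 ± 0.03), COL18A1 (-0.11 ± 0.05) and COL6A1 (-0.11 ± 0.04) lower. The rise was that of COL9A3, by 0.42 ± 0.27. Since the Aza and doxycycline comparisons of U2OS share their untreated libraries, the similarity of their lists is no independent evidence.

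The direct test of U2OS minus HEK293 TET-CD passed for 5 of 28 members, all lower in U2OS and all with opposite signs in the lines, where 2.96% of 13162 genes passed. COL5A1 had -0.37 ± 0.04 in U2OS and 0.23 ± 0.05 in HEK293 before shrinkage, a difference of -0.59 ± 0.07 (adjusted p = 1.6e-16). COL4A2 differed by -0.38 ± 0.04, COL6A1 by -0.39 ± 0.06, COL6A2 by -0.37 ± 0.08 and COL18A1 by -0.25 ± 0.07 (adjusted p = 0.021). COL6A2 and COL18A1 were not called in HEK293 TET-CD, so a rise of these genes there is not shown. With no mutant line in U2OS, an effect of doxycycline and an effect of TET-CD cannot be told apart there.

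UVA light raised COL12A1 and lowered 4 other collagen genes in HEK293. The authors' deposited table for UVA against untreated has 1 of 31 members tested higher and 4 lower, where 12.8% of 13685 genes were called (7.51% higher and 5.25% lower). COL12A1, a FACIT collagen of tendon and ligament, rose by 0.89 ± 0.20 at a mean level of 86.3, and COL9A3 fell by 1.19 with an SE of 0.27 at a mean level of 58.0. COL5A1 and COL21A1 fell by 0.24 and COL14A1 by 0.20 in that deposited table.

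With thio and UVA together COL12A1 was the only call in the deposited tables, 0.99 ± 0.20 against untreated, where 9.52% of genes were called (5.37% higher and 4.15% lower), and 1.03 ± 0.20 against thio alone, where 3.68% were (2.31% higher and 1.37% lower). COL14A1 rose by 0.23 ± 0.09 with thio and UVA against UVA alone, where 3.03% of genes were called (1.42% higher and 1.61% lower) in the deposited table. Thio alone gave 0 calls among 15 members with an adjusted p, where 0.0553% of genes were called (0.00922% higher and 0.0461% lower), and 1 higher and 1 lower at an unadjusted p below 0.05 in the authors' DESeq2 test. These comparisons share libraries with each other and, by the titles, their untreated group with the Aza comparison.

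Antisense RNA was deposited for the tables outside the MeBP experiment, with rows for 42 members. COL5A1 antisense RNA rose in U2OS with Aza by 1.53 ± 0.10 (adjusted p = 1.5e-53) and with TET-CD by 1.13 ± 0.10, at a mean level of 610.8, in the authors' deposited antisense tables, while its sense RNA fell in both. In HEK293 the COL5A1 antisense mean was 10.9 and its change with Aza 0.08 ± 0.16, with no adjusted p given. The antisense row of COL4A2 rose with Aza in U2OS by 0.30 ± 0.12, that of COL10A1 fell with TET-CD in U2OS by 0.44, and that of COL18A1 fell with Aza in HEK293 by 0.40 in the deposited tables. These are 2 of 14 members tested with Aza in U2OS, 2 of 16 with TET-CD in U2OS and 1 of 7 with Aza in HEK293, where 6.33%, 2.17% and 4.88% of genes were called. The kit marks strand, but whether an antisense row counts a neighbouring gene is not given in the sources used here.

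Nascent RNA of HEK293 TET-CD-GFP cells was measured with chicken DF-1 cells added as a spike-in at 10:1, by PRO-seq, which maps engaged polymerase, and PRO-cap, which maps capped 5' ends. Both treatments were set against the same untreated libraries, and 10 members had a row. In PRO-seq over gene bodies 4 of 11 rows rose with Aza and 3 with TET-CD, where 15.1% and 5.84% of 3888 rows were called in the authors' deposited table. COL1A1 (chr17:48266765-48277439, minus strand, positions as deposited in hg19) rose by 0.92 ± 0.22 with Aza and 0.80 ± 0.22 with TET-CD, and COL6A1 (chr21:47401841-47417192, plus strand) by 0.40 ± 0.10 and 0.48 ± 0.10 in that deposited table.

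The deposited gene body rows of COL14A1 and COL27A1 rose with Aza, by 0.27 ± 0.08 and 0.22 ± 0.06, and that of COL9A2 rose with TET-CD by 0.41 ± 0.13. For COL1A1, COL6A1 and COL14A1 the Aza rise was seen in total RNA as well, by 0.95, 0.27 and 0.35 in the authors' deposited table. COL27A1 had negative total RNA changes with Aza in all 4 HEK293 comparisons of the deposited tables, -0.05 ± 0.09 in the same line and -0.11 ± 0.08, -0.13 ± 0.08 and -0.26 ± 0.08 in the MeBP parental line, G16 and G37, of which that in G37 was called. COL12A1, which rose in total RNA by 0.51, had a gene body change of -0.12 ± 0.24 (adjusted p = 0.82) at a mean of 71.7.

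No PRO-cap initiation row of a collagen gene was called. The PRO-cap table had 11 initiation rows of 8 members and 0 calls with either treatment, where 4.43% and 3.87% of 5846 rows were called; at an unadjusted p below 0.05 the authors' DESeq2 test had 1 row higher with each. The PRO-cap start of COL1A1 had -0.00 ± 0.27 with Aza and that of COL6A1 0.06 ± 0.12 in the authors' deposited table, next to the gene body rises above. Secondary starts of COL1A1 (chr17:48277110-48277589), a row that overlaps its PRO-cap promoter row, rose with Aza by 0.85 ± 0.25, the single call among 19 rows, where 2.04% of rows were called.

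Single starts inside or against a collagen gene were also called. A start inside COL9A2 (chr1:40781010-40781160, minus strand) rose with TET-CD by 0.83 ± 0.18 in the authors' deposited table, 1 of 8 member rows, where 4.91% of 2281 such rows were called. Divergent starts lie on the strand opposite to the gene. At COL9A2 (chr1:40781720-40782710, plus strand) they rose by 0.47 ± 0.12 with Aza and 0.58 ± 0.12 with TET-CD. At COL27A1 (chr9:116918670-116919260, minus strand), past its PRO-cap promoter row (chr9:116917720-116917920), the rises were 0.68 ± 0.18 and 0.83 ± 0.18. These were 2 of 15 rows with each treatment, a share near the 14.6% and 12.5% called over all rows. An antisense start inside COL6A1 (chr21:47402780-47402920) rose by 2.86 ± 0.67 with Aza and 2.90 ± 0.67 with TET-CD, 1 of 6 member rows, where 5.62% and 3.48% of rows were called in the deposited table. In COL13A1 the deposited rows of an internal start at a mean of only 2.6 (4.65 ± 1.54, 1 of 8 rows, where 5.79% were called) and of dispersed antisense starts (1.09 ± 0.29, 1 of 15 rows, where 0.468% were called) rose with Aza.

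Genes that act on collagens were called in both directions, and their shares are to be read against all genes: 14.3% called with Aza in HEK293 (7.17% higher and 7.14% lower), 23.7% with Aza in U2OS (10.8% and 12.9%) and 12.2% with TET-CD in U2OS (5.8% and 6.43%). Of 21 procollagen modification genes, the authors' deposited tables call 3 higher and 2 lower with Aza in HEK293, 23.8%, and 2 higher and 4 lower with Aza in U2OS, 28.6%. SERPINH1, the collagen chaperone HSP47, fell in U2OS by 0.24 with Aza and 0.13 with TET-CD, and PLOD3, a lysyl hydroxylase, rose by 0.23 in HEK293 and fell by 0.17 in U2OS with Aza in the deposited tables.

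Of 14 trimming and cross-linking genes, 1 rose and 1 fell with Aza in HEK293, 14.3%, and 1 rose and 6 fell with Aza in U2OS in the authors' deposited tables. The U2OS calls include lower values for the procollagen peptidase ADAMTS2 (by 0.33), the peroxidase PXDN (by 0.28) and the lysyl oxidase LOXL1 (by 0.21) and a higher value for LOXL3 (0.27 ± 0.08); those of HEK293 in the deposited table were LOXL4, which rose by 1.01 ± 0.18, and ADAMTS2, which fell by 0.46.

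Among 15 laminins and basement membrane partners of type IV collagen, 3 rose and 6 fell with Aza in U2OS and 1 rose and 9 fell with TET-CD in the authors' deposited tables. NID1, which links laminin to type IV collagen, fell by 0.86 and 0.42, the perlecan gene HSPG2 by 0.65 and 0.36, and AGRN by 0.40 with Aza, while the laminin gene LAMA4 rose with Aza by 0.47 ± 0.16. In HEK293 with Aza the deposited table has LAMA1 lower by 0.49 and LAMB2 higher by 0.39, 2 of 15 in each direction, and with TET-CD LAMC3 rose by 0.43.

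Collagen receptors rose in HEK293 with Aza in 2 of 7 genes, DDR2 by 0.77 ± 0.20 and DDR1 by 0.44 ± 0.10, and 1 of 7 rose in U2OS, ITGA2 by 0.24 ± 0.05, in the authors' deposited tables. Of the collagen degradation genes tested, 3 of 11 rose in HEK293 with Aza, among them MRC2, the receptor that takes up collagen, by 0.67 ± 0.11, while in U2OS 3 of 12 rose and 4 fell. Of the small proteoglycans and fibril partners in U2OS, 3 of 13 rose and 5 fell with Aza, with a median change before shrinkage of 0.16, and 1 of 11 rose and 6 fell with TET-CD, with a median of -0.11. LUM, which limits fibril width, fell by 0.40 and TNC by 0.30 with TET-CD, and VCAN rose by 2.68 ± 0.14 with Aza and 1.82 ± 0.15 with TET-CD in the deposited tables of U2OS.

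In all, 31 of the 43 members were called in at least 1 of the 16 sense comparisons. The same count over all genes is not given here, and single Aza comparisons called up to 24.7% of genes. The count of 31 therefore does not set collagens apart from other genes. COL6A5, COL6A6, COL7A1, COL8A1, COL9A1, COL10A1, COL11A2, COL19A1, COL20A1, COL24A1, COL25A1 and COL28A1 were called in none. Their deposited means ran from 2.4 to 6595 in HEK293 and from 0 to 1842 in U2OS, and 8 of the 12 had a mean under 100 in HEK293 and 10 of the 12 in U2OS. COL1A2 was called higher with Aza in G37 at a mean of 2.0, with a deposited change of 0.02 ± 0.11 that does not give its size.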

How the data were processed

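The authors sequenced 63 total RNA, 9 PRO-cap and 9 PRO-seq libraries of these groups, 3 in each, and 13 DNA samples that were not analysed here. Per the submitters' processing notes the tools included DESeq2 1.22.1 in R 3.5.1 and the aligners STAR 2.4.2 and Bowtie2 2.2.6, with hg19 as the build. The deposited mean is a normalised read signal per gene, averaged by the authors over all libraries of a table set; the nascent tables give the same mean for both treatments. The deposited change is a log2 fold change with its SE, by the authors' comparison with DESeq2. The deposited p-value and adjusted p-value are the authors', and genes the authors' filter left without an adjusted p were not called. The nascent tables also hold a deposited Wald score from the authors' test. No library has a value of its own, so nothing was refitted.

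Total RNA changes had been shrunk by the authors with a heavy-tailed prior, as the deposited values show. The change before shrinkage was recovered from the deposited change, SE and p-value and was used only for medians and for differences between comparisons with separate libraries, each tested by a normal approximation over the joint SE, with Benjamini-Hochberg adjustment over all genes tested. Recovery was checked on simulated data, which cannot show how well it works on each deposited table. The change with thio and UVA against UVA was also compared with the difference of recovered effects (Pearson r = 0.997, 13685 genes). The median gap left by recovery, as a z-score, was 0.23 for doxycycline in G37, whose recovered values were unreliable and were not used. With doxycycline it was 0.057 for TETmut-CD, 0.030 for TET-CD and 0.0012 for U2OS. Tests that use the HEK293 doxycycline changes therefore rest on looser recovery than the U2OS changes. Where a symbol had repeated rows, the row of highest mean was kept. Calls use adjusted p below 0.05.

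Every member called with Aza or doxycycline in HEK293 TET-CD and U2OS is named, as is every called member elsewhere (with a value for at least the 8 of largest change where there were more), the 5 of highest mean in each line, and members that passed a difference test. Companion lists give up to 4 called genes of largest change with a mean of at least 100. The members and all lists were chosen with earlier results of these data known. Python 3.11.15, pandas 2.3.3, numpy 2.4.6, scipy 1.17.1 and matplotlib 3.10.9 were used.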

Additional observations from a re-analysis of the deposited data

Results flagged for a closer look

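The Aza response of 9 collagen genes differed between U2OS and HEK293 in the test of the difference itself, given here as the log2 change before shrinkage in U2OS minus that in HEK293, with SE. It was higher in U2OS for COL14A1 (2.52 ± 0.30) and COL4A1 (0.29 ± 0.07). It was lower in U2OS for COL16A1 (-1.55 ± 0.42), COL1A1 (-0.91 ± 0.22), COL5A1 (-0.80 ± 0.09), COL12A1 (-0.69 ± 0.20), COL6A1 (-0.61 ± 0.10), COL5A2 (-0.45 ± 0.14) and COL4A5 (-0.23 ± 0.08). Dose and line cannot be told apart here.

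The doxycycline response of 5 collagen genes differed in the same way, each lower in U2OS: COL5A1 (-0.59 ± 0.07), COL6A1 (-0.39 ± 0.06), COL4A2 (-0.38 ± 0.04), COL6A2 (-0.37 ± 0.08) and COL18A1 (-0.25 ± 0.07). The TET1 row rose by 3.52 ± 0.03 in U2OS and by 2.34 ± 0.03 in HEK293 in the authors' deposited tables, and the part of that in these differences was not tested.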

How the results depend on the processing

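No paired analysis was possible because the deposited tables hold 1 change per comparison and no value per library, so neither a replicate block nor a fit without a replicate could be made. Of the counts of called members, 86 alternatives stayed within 1.5 times the reported count and 13 did not. At an adjusted p below 0.01 the count fell from 12 to 7 for doxycycline in U2OS, from 13 to 7 for Aza in HEK293, from 17 to 8 for Aza in G37, from 5 to 2 for UVA, and from 1 to 0 for thio and UVA against UVA. At 0.1 that last count was 2, the count for thio and UVA against untreated was 3 instead of 1, and the antisense count over all tables was 8 instead of 5. With a mean of at least 100 required, the count was 8 for Aza in HEK293, 3 for UVA, and 0 for thio and UVA against thio and against untreated, since COL12A1 has a lower mean there. With the deposited shrunken effects, 2 members in place of 0 differed between TET-CD and TETmut-CD; the cause was not tested.

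Of the single-gene results, 329 alternatives left the call and 5 lost it, and no direction reversed. COL14A1 with Aza in G16 was lost with p-values adjusted over every gene (adjusted p = 0.053) or with changes centred on the median gene (adjusted p = 0.066). With shrunken effects the Aza difference of COL12A1 (adjusted p = 0.10) and the doxycycline differences of COL6A2 (adjusted p = 0.077) and COL18A1 (adjusted p = 0.38) no longer passed. Depth is unknown, and members with means under 20, such as COL6A3, COL16A1 and COL17A1 in HEK293, carry large errors.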
